A study of Mus musculus with 4 samples.

Results

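The miR-106b~25 cluster is a group of 3 microRNA hairpins, mir-106b, mir-93 and mir-25, that lie inside Mcm7, the gene of a subunit of the replicative DNA helicase. Its members were chosen by name: every row for miR-106b, miR-93 or miR-25, with or without a star. The rows found were mmu-miR-106b, mmu-miR-106b*, mmu-miR-93, mmu-miR-93* and mmu-miR-25 (written without mmu- below), which makes 5 of the 508 microRNAs listed in any library. No row named miR-25* was used here. A star marks the arm of a hairpin that was named as the passenger strand.

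The values come from small RNA sequencing of mouse embryonic fibroblasts (MEFs), cells grown out of embryos. All 4 groups carry shLuc.1309, an shRNA (short hairpin RNA) whose target, luciferase, is not a mouse gene. The groups are shLuc.1309 without doxycycline (-dox), shLuc.1309 with doxycycline (+dox), and shLuc.1309;ROSA-rtTA in the same 2 states. ROSA-rtTA is a doxycycline-dependent transactivator placed at the Rosa26 locus. The labels state neither the dose and duration of doxycycline nor the age and number of the embryos. Each group is 1 library, so no difference below has a replicate check, and each compares 2 libraries rather than 2 conditions. In RNA pooled from a culture, fewer cells that express a microRNA and less of it per cell cannot be told apart.

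The libraries held 6383594 to 8780954 counts. Levels are in CPM, a microRNA's counts per 1000000 endogenous microRNA counts of its library, with the shRNA left out. The shRNA itself stood at 726 to 786 CPM in the 3 uninduced libraries and at 24386 CPM in rtTA +dox. Of 7 fibroblast and mesenchymal markers 6 were listed, and they summed to 409669 to 423989 CPM. Markers of blood (6 of 6 listed, 81.8 to 98.6 CPM summed), endothelium (2 of 2, 120 to 175 CPM) and neurons (5 of 5, 486 to 712 CPM) were far below these. Epithelial markers (6 of 6 listed) summed to 4.86 to 17.4 CPM and pluripotency markers (4 of 7 listed) to 0.306 to 0.666 CPM. miR-290-5p, miR-291a-3p and miR-302d had no row. The liver marker miR-122 stood at 2.51 to 3.99 CPM.

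As background, a microRNA hairpin is cut by Drosha and Dicer into a short duplex, and 1 strand of it is loaded into an Argonaute protein. The loaded strand recognises messenger RNAs mainly through its seed, bases 2 to 8 from the 5′ end. The cluster is transcribed with Mcm7, a target of E2F factors in dividing cells. Its guides restrain transcripts such as those of the cell cycle inhibitor p21, of E2F1 itself and of the pro-apoptotic protein Bim. A cluster around miR-17 and miR-92a on chromosome 14 and a cluster around miR-106a on chromosome X are its paralogs.

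The 5 mature sequences are shown because they place the cluster in 2 seed families. They are written as deposited, 5′ to 3′ with T for U, with the seed in capitals.
miR-106b: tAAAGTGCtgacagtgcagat
miR-93: cAAAGTGCtgttcgtgcaggtag
miR-25: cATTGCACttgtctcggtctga
miR-106b*: cCGCACTGtgggtacttgctgc
miR-93*: aCTGCTGAgctagcacttcccg
miR-106b and miR-93 share a seed with miR-17, miR-20a, miR-20b and miR-106a. miR-25 shares its seed with miR-92a, miR-92b, miR-32 and miR-363. The most abundant relatives of each seed outside the cluster were the following.
miR-20a: tAAAGTGCttatagtgcaggtag
miR-17: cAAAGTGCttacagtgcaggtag
miR-92a: tATTGCACttgtcccggcctg
Both star arms have seeds of their own. Every member lay more than 2 edits from any other listed microRNA. The closest pair was miR-93 and miR-17, 3 edits apart.

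All 5 matched a RefSeq mature microRNA on chromosome 5 of GRCm38.p6, minus strand. miR-106b lies at chr5:138165787-138165807, miR-106b* at chr5:138165746-138165767, miR-93 at chr5:138165574-138165596, miR-93* at chr5:138165536-138165557 and miR-25 at chr5:138165332-138165353. The 3 hairpins span 498 bases within intron 13 of the principal Mcm7 transcript (GENCODE annotation of GRCm38), an intron of 748 bases between exons 13 and 14. The mir-93 and mir-25 hairpins also overlap an exon of another Mcm7 transcript, which is annotated as a retained intron, and the mir-106b hairpin overlaps no annotated Mcm7 exon. The hairpins of mir-106b and mir-93 are printed from RefSeq, with the listed arms in capitals, because their arms were recovered in very different proportions.
mir-106b: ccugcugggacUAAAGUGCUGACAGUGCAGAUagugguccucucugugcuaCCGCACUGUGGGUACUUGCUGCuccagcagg
mir-93: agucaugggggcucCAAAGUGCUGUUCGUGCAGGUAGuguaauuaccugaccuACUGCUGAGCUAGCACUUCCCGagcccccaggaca

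The hairpins of the cluster come from 1 intron, yet their guides differed widely in level. miR-93 was highest in rtTA +dox and miR-25 in rtTA -dox, while the highest library of miR-106b did not exceed others by more than counting error. miR-93 was the most abundant member, followed in each library by miR-25, miR-106b, miR-106b* and miR-93*. The mature species are 21 to 23 bases long, so CPM counts molecules of nearly equal length, although cloning efficiency can differ between sequences. Together the 5 members held 4285 CPM in no rtTA -dox, 4289 in no rtTA +dox, 5352 in rtTA -dox and 5898 in rtTA +dox. The cluster total was thus nearly the same in both libraries without rtTA and higher in both with it. miR-93 alone made up 68.7% to 79.4% of this total, and miR-25 and miR-106b did not split the libraries by genotype.

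miR-93, a guide of the miR-17 seed, stood at 3169 CPM in no rtTA -dox (20216 counts), 2947 in no rtTA +dox (19273), 3785 in rtTA -dox (33212) and 4686 in rtTA +dox (35180). Both rtTA libraries lay above both libraries without it, and the induced library was the highest. No 2 of its 95% counting intervals overlapped. It ranked 32 to 46 among the endogenous microRNAs.

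miR-106b, the other guide of that seed, stood at 261 CPM (1668 counts), 244 (1598), 222 (1947) and 257 (1931) in the same order. The intervals of the 3 highest libraries overlapped (249 to 274, 233 to 257 and 246 to 269 CPM), and rtTA -dox lay just below them (212 to 232). It was the flattest member: its highest library was 1.18-fold above its lowest, against a median of 1.58-fold over the 372 microRNAs that passed the floor. That floor is a mean of 3.14 CPM, or 20 counts in the shallowest library, and all 5 members passed it.

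miR-25, the guide of the other seed, stood at 743 CPM in no rtTA -dox (4738 counts), 962 in no rtTA +dox (6290), 1155 in rtTA -dox (10131) and 774 in rtTA +dox (5812). The 2 libraries with only dox or only rtTA were the highest. The untreated library without rtTA and the induced library lay lowest, with 95% counting intervals that overlap (722 to 764 and 754 to 794 CPM), while for miR-93 the induced library was the highest.

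The passenger arm miR-106b* stood at 60.0 CPM (383 counts), 80.7 (528), 123 (1077) and 123 (922). Both rtTA libraries were above both others and had overlapping intervals (116 to 130 and 115 to 131 CPM). Its highest library was 2.05-fold above its lowest. miR-93* was lower and flatter, at 51.4 CPM (328 counts), 55.0 (360), 67.8 (595) and 58.5 (439), a range of 1.32-fold. The order of miR-93* between its 2 lowest libraries does not exceed counting error, since their 95% intervals (46.0 to 57.3 and 49.5 to 61.0 CPM) overlap.

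**Figure D1:**
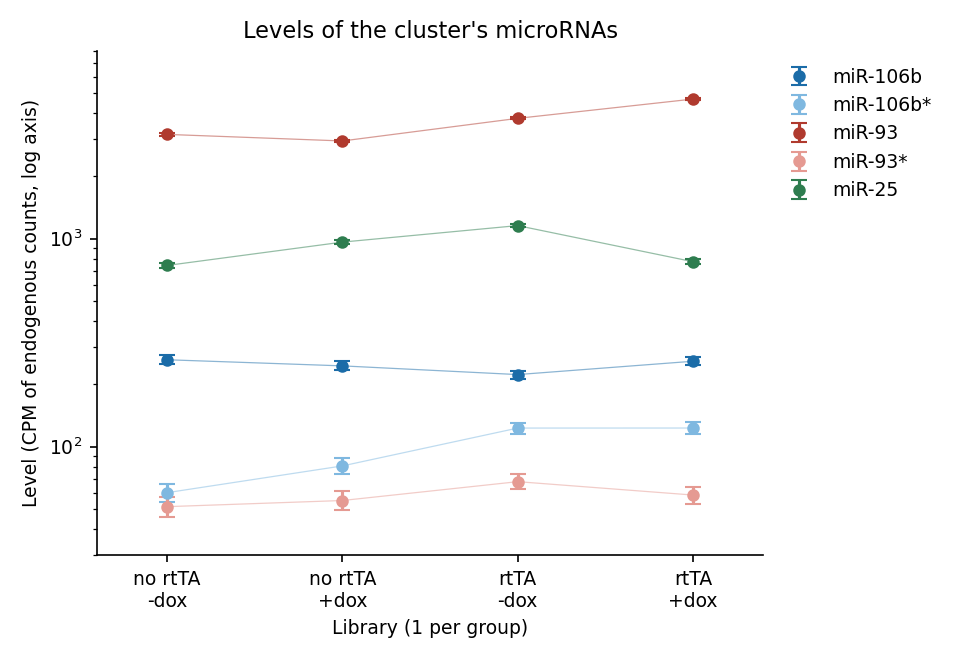
Level of each member in CPM of endogenous counts (log axis) in the 4 libraries. Points are single libraries, bars are exact 95% counting intervals, and thin lines only link the points of 1 microRNA. miR-93 lies between 2947 and 4686 CPM, above miR-25 (743 to 1155), miR-106b (222 to 261) and both star arms.

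The shares of the members among the cluster's own counts do not depend on how libraries are scaled. miR-93 held 74.0% (95% Clopper-Pearson interval 73.4% to 74.5%) in no rtTA -dox, 68.7% (68.2% to 69.3%) in no rtTA +dox, 70.7% (70.3% to 71.1%) in rtTA -dox and 79.4% (79.1% to 79.8%) in rtTA +dox. miR-25 held 17.3%, 22.4%, 21.6% and 13.1% in the same order. The ratio of miR-93 to miR-25 was therefore 4.27 in no rtTA -dox, 3.06 in no rtTA +dox, 3.28 in rtTA -dox and 6.05 (5.89 to 6.22) in rtTA +dox. miR-93 holds 34.8% G and miR-25 22.7%, and these shares and ratios were not adjusted for the composition trends given below. The ratio of miR-93 to miR-106b split the libraries differently, by genotype: it was 12.1 in both libraries without rtTA, and 17.1 and 18.2 in those with it. These intervals, like all those given here, cover counting error only. They treat reads as independent, which PCR copies of 1 molecule are not.

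Doxycycline in rtTA cells compares the induced with the uninduced rtTA library and addresses whether a strongly expressed shRNA goes with a changed microRNA pool. The 2 guides of the miR-17 seed were slightly higher in the induced library and miR-25 was lower. The log2 ratio was 0.31 for miR-93 (95% counting interval 0.29 to 0.33) and 0.21 for miR-106b (0.12 to 0.30). For miR-25 it was -0.58 (-0.62 to -0.53), a fold of 0.67. miR-106b* was level at 0.00066 (-0.13 to 0.13), and miR-93* stood at -0.21 (-0.40 to -0.03). A microRNA was counted as apart when it differed by at least 2-fold with an interval that excluded equality. By this rule 0 of 5 members were apart, against 9.95% of the 372 microRNAs. The median of the members was 0.00066 and that of all 372 was -0.06.

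The ratios of this comparison moved with base composition across the 372 microRNAs (Pearson r of 0.72 with the percentage of G, over microRNAs of the same 2 libraries). miR-93 is the member with the most G (34.8%), and miR-25 and miR-93* have the least (22.7%). With the linear trend on G subtracted, the values were 0.01 for miR-93, 0.18 for miR-106b, -0.36 for miR-25, -0.17 for miR-106b* and 0.0034 for miR-93*. The percentage of G and C together had a Pearson r of 0.46 with the ratios. With that trend subtracted instead, the values were 0.29 for miR-93, 0.45 for miR-106b, -0.53 for miR-25, -0.33 for miR-106b* and -0.42 for miR-93*. miR-25 thus kept its direction with either trend, while the value of miR-93 was close to 0 with the G trend and hardly moved with the GC trend. On the G trend itself, miR-25 and miR-93* share 1 value (-0.22), and their measured ratios were -0.58 and -0.21.

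Doxycycline without rtTA gives the drug with the shRNA uninduced. Here miR-93 and miR-25 went the other way: miR-93 stood at -0.10 (-0.13 to -0.08) and miR-25 at 0.37 (0.32 to 0.43). miR-106b stood at -0.10 (-0.20 to 0.0020), with an interval that spanned equality. miR-106b* was higher in the treated library, at 0.43 (0.23 to 0.62), and the interval of miR-93* also spanned equality (0.10, -0.12 to 0.32). Again 0 of 5 members were apart by 2-fold, against 1.61% of all. The members' median was 0.10 and that of all 372 was -0.04.

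Set side by side, the dox ratio with rtTA less the dox ratio without it was -0.95 (-1.02 to -0.88) for miR-25 and 0.41 (0.38 to 0.45) for miR-93. The corresponding values were 0.31 (0.18 to 0.45) for miR-106b, -0.43 (-0.65 to -0.20) for miR-106b* and -0.31 (-0.59 to -0.03) for miR-93*. Each interval is a counting interval that excluded 0, but none of the 5 differences reached 2-fold, a size passed by 18.0% of the 372 microRNAs.

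The transactivator without doxycycline compares the 2 untreated libraries, which carry different genotypes at nearly equal shRNA levels. All members but miR-106b were higher in the rtTA library. miR-106b* stood at 1.03 (0.86 to 1.20), a fold of 2.04, on 383 and 1077 counts. miR-25 was 1.55-fold higher (0.64, 0.59 to 0.69), miR-93* stood at 0.40 (0.20 to 0.60) and miR-93 at 0.26 (0.23 to 0.28). miR-106b was lower, at -0.24 (-0.33 to -0.14). By the 2-fold rule 1 of 5 members, miR-106b*, was higher, against 0.538% of all microRNAs (1.88% in either direction), and at 1.5-fold 2 of 5 were higher (miR-106b* and miR-25), against 2.42%. The median of the members was 0.40 and that of all 372 was -0.07. The percentage of G had a Pearson r of -0.0038 with these ratios and that of G and C together -0.21.

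The transactivator with doxycycline compares the induced library with treated cells that lack rtTA. miR-93 (0.67, 0.64 to 0.69) and miR-106b* (0.61, 0.45 to 0.76) were higher in the induced library by 1.59-fold and 1.52-fold. miR-106b (0.07, -0.02 to 0.17) and miR-93* (0.09, -0.12 to 0.29) had intervals that spanned equality, and miR-25 was lower (-0.31, -0.36 to -0.26). None of the 5 was apart by 2-fold, against 16.7% of all, and 2 of 5 were higher at 1.5-fold, against 13.7%. The members' median was 0.09 and that of all was -0.07. The Pearson r with the percentage of G was 0.69 here, and with that trend subtracted miR-93 stood at 0.37, miR-106b* at 0.45, miR-93* at 0.40, miR-106b at 0.09 and miR-25 at 0.0013. For G and C together r was 0.49, and with that trend subtracted they stood at 0.69, 0.21, -0.14, 0.43 and -0.21 in the same order. Each of the 4 libraries enters 2 of the 4 comparisons, so the comparisons are not independent of each other.

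**Figure D2:**
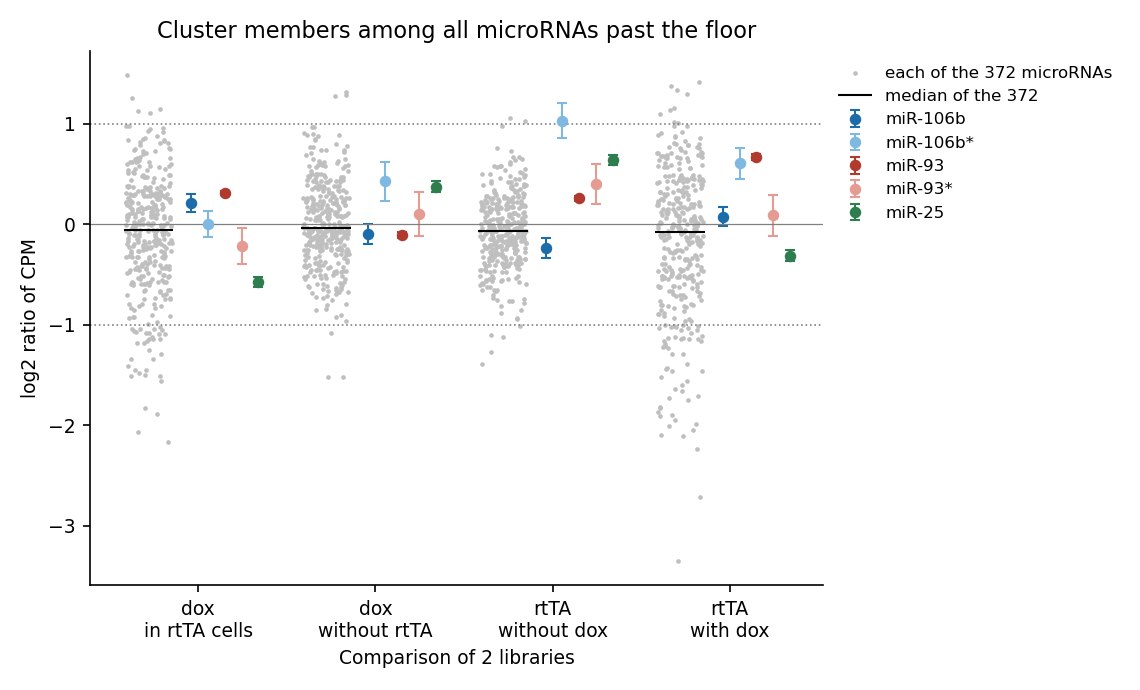
log2 ratio of CPM in each of the 4 comparisons. Grey points are the 372 microRNAs past the floor with their median as a black bar, coloured points are the 5 members with exact 95% counting intervals, and dotted lines mark 2-fold. miR-106b* at 1.03 in rtTA without dox is the only member beyond a dotted line.

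Some marker sums of other cell types were also higher in both rtTA libraries than in both others. The 4 muscle microRNAs (4 of 4 listed, 3 past the floor) summed to 262 and 246 CPM without rtTA and to 382 and 592 CPM with it. Nearly all of this sum was miR-206, at 246, 234, 352 and 575 CPM from no rtTA -dox to rtTA +dox. miR-1 stood at 7.995, 7.65, 16.6 and 7.86 CPM, so that its level in the induced library was close to those without rtTA. miR-133a (6.58, 3.67, 9.004 and 6.66 CPM) was likewise about equal in no rtTA -dox and rtTA +dox, and miR-133b stood at 0.941, 1.22, 3.65 and 2.93 CPM. The epithelial sum was 17.4 and 9.86 CPM with rtTA and 4.86 and 6.12 CPM without it, but 0 of its 6 microRNAs passed the floor. miR-205 made up 8.66 of the 17.4 CPM, on 76 counts, and miR-200a was lower in rtTA +dox (1.33 CPM) than in no rtTA +dox (1.68). The sums of the fibroblast, blood, endothelial and neuronal lists did not separate the genotypes. Blood summed to 81.8 and 84.1 CPM without rtTA and to 98.6 and 82.2 with it, endothelium to 120 and 175 against 134 and 126, and neurons to 486 and 639 against 595 and 712. miR-122 (2.51 and 3.36 against 3.99 and 3.73 CPM) and the pluripotency sum (0.314 and 0.306 against 0.342 and 0.666 CPM) were slightly higher with rtTA, at levels near or under the floor. The part of muscle or epithelial cells in the higher miR-106b* and miR-93 of the rtTA libraries was not tested. With 1 library each, the genotype and the culture it came from cannot be told apart.

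The mir-106b hairpin showed the largest shift between arms within the cluster. miR-106b* held 18.7% of the counts of both arms (17.01% to 20.4%, 383 of 2051) in no rtTA -dox and 24.8% (23.0% to 26.7%, 528 of 2126) in no rtTA +dox. It held 35.6% (33.9% to 37.4%, 1077 of 3024) in rtTA -dox and 32.3% (30.6% to 34.1%, 922 of 2853) in rtTA +dox. The intervals of the rtTA libraries lay above those of the others. For mir-93 the star arm held only 1.60%, 1.83%, 1.76% and 1.23% in the same order, near the median star share of 2.05% to 2.30% over 81 hairpins. These 81 have both a guide and a star row, with at least 20 counts of both arms together in each library.

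Between the untreated libraries the log2 odds of miR-106b* over miR-106b were higher with rtTA by 1.27 (1.07 to 1.46). This passed 2-fold, as did 2.47% of the 81 hairpins in the same direction, with a median over hairpins of 0.08. For mir-93 the same value was 0.14 (-0.05 to 0.34). In rtTA with dox the odds differed by 0.53 (0.35 to 0.71) for mir-106b and by -0.58 (-0.78 to -0.38) for mir-93. Without adjustment for base composition, the star arms of these 2 hairpins thus stood on opposite sides. Dox without rtTA gave 0.52 (0.31 to 0.74) and 0.20 (-0.01 to 0.42), and dox in rtTA cells gave -0.21 (-0.37 to -0.06) and -0.52 (-0.70 to -0.34). Of the 8 values for both hairpins, that of mir-106b in rtTA without dox was the only one past 2-fold. Over all 81 hairpins, 24.7% passed it in rtTA with dox, 7.41% in dox without rtTA and 17.3% in dox in rtTA cells. In rtTA with dox, subtracting the G trend left miR-93* at 0.40 beside 0.37 for miR-93, and miR-106b* at 0.45 beside 0.09 for miR-106b. Subtracting the GC trend left -0.14 beside 0.69, and 0.21 beside 0.43. With either trend subtracted the 2 star arms thus stood on the same side of their guides. The part of base composition in the arm odds was not tested.

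**Figure D3:**
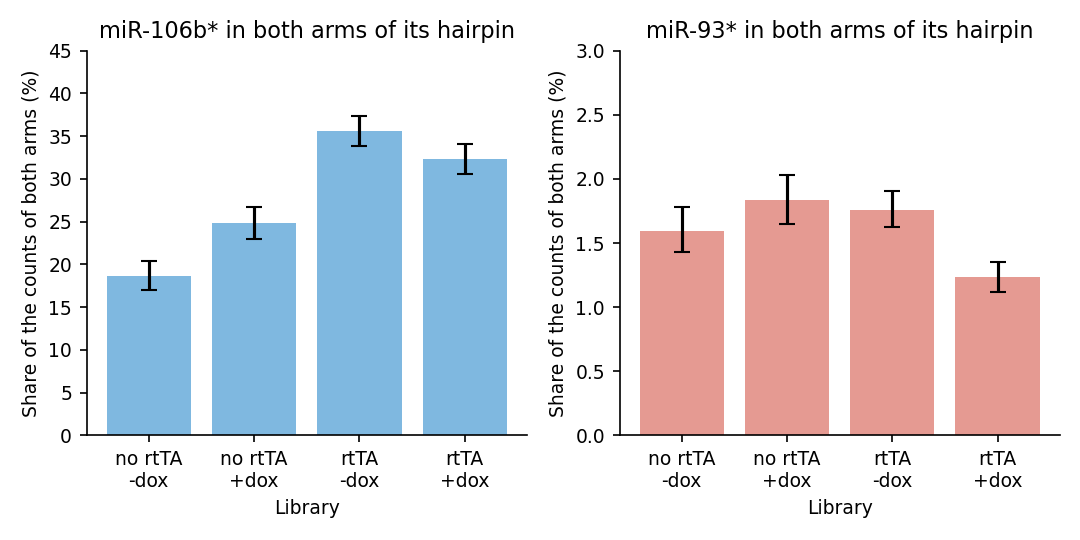
Share of the star arm among the counts of both arms of mir-106b (left) and mir-93 (right) in each library, with exact 95% Clopper-Pearson intervals. The vertical scales differ. miR-106b* runs from 18.7% to 35.6%, with both rtTA libraries highest, and miR-93* stays between 1.23% and 1.83%.

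Within its seed family the cluster was a minor source of molecules. The 6 listed microRNAs of the miR-17 seed summed to 14721, 13680, 14734 and 18344 CPM from no rtTA -dox to rtTA +dox. miR-93 and miR-106b together supplied 23.3% in each of the libraries without rtTA, 27.2% in rtTA -dox and 26.9% in rtTA +dox. miR-20a of the chromosome 14 cluster supplied 65.3% to 69.8% and miR-17 6.78% to 9.20%. miR-106a, the X-linked relative, had 1 to 6 counts per library. The higher share with rtTA came with miR-93, which went from 21.5% to 25.7% and 25.5%, while miR-106b stood at 1.78%, 1.79%, 1.51% and 1.40%.

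miR-25 made up a larger part of its own family. The 5 listed microRNAs of that seed summed to 2573, 2485, 2893 and 1831 CPM. The share of miR-25 was 28.9% (28.2% to 29.6%) in no rtTA -dox, and 38.7% (37.9% to 39.4%), 39.9% (39.3% to 40.5%) and 42.3% (41.5% to 43.1%) in the other 3. Against rtTA -dox, the lower total of the induced library was shared by miR-25 (774 CPM, against 1155), miR-92a (996 against 1618) and miR-32 (43.8 against 96.9). Against no rtTA -dox, where miR-25 stood at 743 CPM, miR-25 was not lower in the induced library. miR-363 had at most 1 count in any library.

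The seed families differed in the induced against the uninduced rtTA library. All 5 members of the miR-17 seed past the floor had ratios above 0 (0.10 to 0.33), and all 4 of the miR-25 seed had ratios below 0 (-0.53 to -1.14). Of these, miR-20b had an interval that spanned equality (-0.21 to 0.41). Over all 372 microRNAs the median was -0.06 and the quartiles were -0.45 and 0.29. By the 2-fold rule 0 of 5 and 1 of 4 (miR-32, lower) were apart, beside the 9.95% of all microRNAs. In rtTA with dox the ratios also lay above 0 for 5 of 5 (0.07 to 0.67) and below 0 for 4 of 4 (-0.09 to -1.71). There the intervals of miR-106b (-0.02 to 0.17), miR-20b (-0.05 to 0.64) and miR-92b (-0.47 to 0.28) spanned equality. The median of all microRNAs was -0.07, with quartiles of -0.59 and 0.34. In dox without rtTA those of the miR-17 seed lay below 0 (-0.05 to -0.55) and 2 of 4 of the miR-25 seed above it. The first group holds 28.6% to 34.8% G and the second 13.6% to 23.8%, and the part of this difference in the ratios was not tested beyond the trend given above. Members of both seeds share clusters: miR-92a lies on chromosome 14 with miR-17 and miR-20a, as miR-25 lies with miR-93 and miR-106b.

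**Figure D4:**
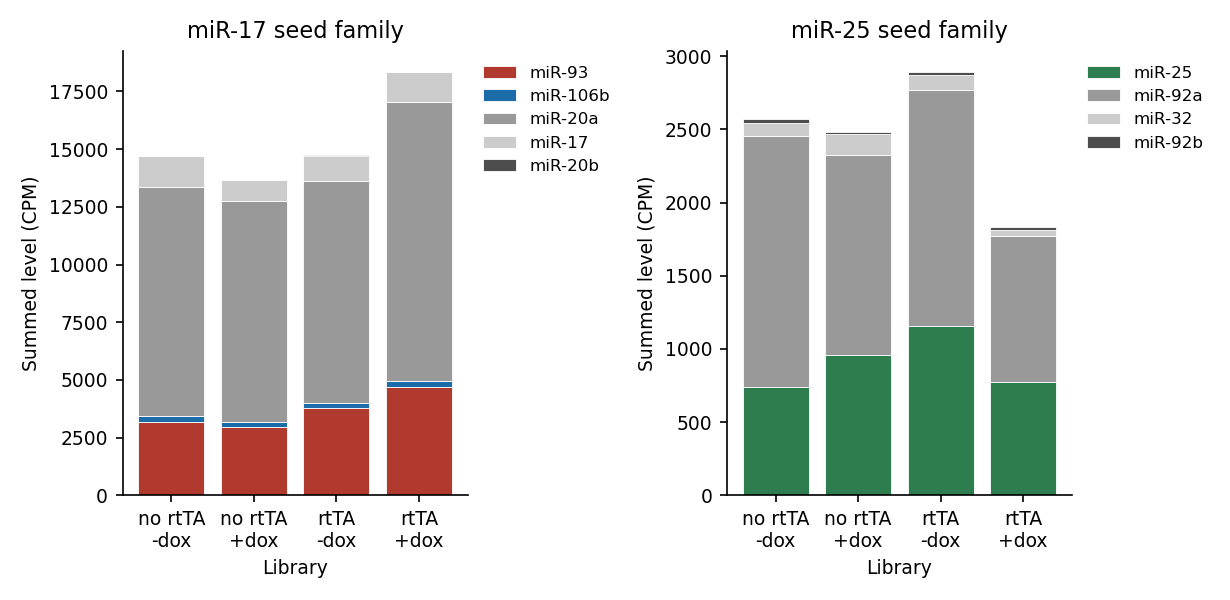
Summed level in CPM of the microRNAs with the miR-17 seed (left) and the miR-25 seed (right) in each library, stacked by microRNA, with cluster members in colour. miR-106a and miR-363, with 6 counts or fewer per library, are not drawn. miR-93 is a minor part of its family throughout, and the induced library has the highest total on the left and the lowest on the right.

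The paralogous clusters and another intronic pair give the setting. Of the 10 named microRNAs of the chromosome 14 cluster, all passed the floor, and 0 were apart by 2-fold in rtTA without dox (median 0.01). This count of 0 stands beside 1.88% of all microRNAs apart there. In that comparison 5 of the 10 lay above 0, of which miR-20a* was highest at 0.50 (0.31 to 0.68). The most abundant of the 10, miR-20a and miR-18a, stood at -0.04 and -0.35, beside 0.26 for miR-93. In dox in rtTA cells their median was 0.14, with 0 apart, beside 9.95%, and in dox without rtTA it was 0.03, with 0 apart, beside 1.61%. In rtTA with dox their median was 0.06 and 1 of 10 was lower by 2-fold, beside 16.7% of all. That one, named after its value was seen, was miR-19a*, on 36 and 10 counts (-2.05, -3.22 to -1.01). In dox in rtTA cells miR-19a* stood at -1.10 with an interval that spanned equality (-2.32 to 0.01). miR-19b and miR-92a also have a copy in the X-linked cluster, so their counts can hold reads of both. The X-linked cluster was barely expressed: its 5 listed microRNAs summed to 24.6 to 30.3 CPM, and 2 of them passed the floor. miR-15b and miR-15b*, which with miR-16 come from Smc4, a condensin gene of dividing cells, stood at -1.56 and -1.45 in dox in rtTA cells, where 2 of the 3 Smc4-hosted microRNAs past the floor were lower by 2-fold, against 8.6% of all. miR-16, which has a second locus, was at -0.30. miR-15b, miR-15b* and miR-16 hold 18.2%, 13.6% and 27.3% G, and the part of base composition in their ratios was not tested. In rtTA with dox 1 of the 3 Smc4-hosted microRNAs was lower by 2-fold, beside 16.7% of all apart in either direction. In dox without rtTA and in rtTA without dox 0 of them were apart, beside 1.61% and 1.88%.

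The members were not each other's nearest neighbours in profile. Likeness was the root mean square difference of log2 CPM over the 4 libraries after centring each microRNA on its own mean. The nearest to miR-93 were miR-378* (0.03), let-7c (0.05) and miR-138 (0.06), and the nearest to miR-25 were miR-20a* (0.07), miR-221 (0.09) and let-7f (0.10). miR-106b was closest to miR-34a (0.04), miR-467c (0.04) and miR-434-5p (0.05). miR-106b* had no near match: miR-147 and miR-30c-1* were both at 0.16 and miR-142-5p at 0.19. miR-93* was closest to miR-142-3p and miR-125b* (0.03 each), then miR-155 (0.08). Likeness and its order take no account of counting error, which is large for rare microRNAs such as miR-142-3p (51 to 91 counts per library). Between members the difference ran from 0.17, for miR-93* and miR-25, to 0.49, for miR-106b and miR-106b*. In the order of likeness to miR-106b*, miR-93 stood at place 14 of 371, miR-93* at 27 and miR-25 at 67. miR-25 stood at place 42 for miR-93* and at 202 for miR-93, while miR-93* stood at 73 for miR-93. For miR-106b the other members stood at places 145 to 317.

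An additive model over all 4 libraries put a p-value on each term, with 1 residual degree of freedom and the assumption of 1 dox effect for both genotypes. edgeR's quasi-likelihood test with Benjamini-Hochberg adjustment called 0 of 372 microRNAs (0.0%) for the rtTA term (25 at an unadjusted p below 0.05) and 0 for the dox term (11 unadjusted). For miR-106b* the rtTA term was a log2 fold change of 0.87 (unadjusted p = 0.052, adjusted p = 0.74 by edgeR), and DESeq2 gave 0.89 (unadjusted p = 0.015, adjusted p = 0.82). For miR-93 it was 0.51 (unadjusted p = 0.091, adjusted p = 0.94 by edgeR), and DESeq2 gave 0.54 (unadjusted p = 0.095, adjusted p = 0.996). DESeq2 called 0 for either term (15 unadjusted for rtTA and 11 for dox).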

How the data were processed

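The authors deposited raw counts of reads, 1 per microRNA and library, with the library title in the file headers. For the aligner, its mismatch limit, the genome build, the microRNA database version and the treatment of reads that match several microRNAs, nothing is given in the sources used here. A microRNA not listed in a library was taken as 0. From these counts CPM (per 1000000 endogenous counts, without the shRNA row) and log2 ratios were computed with exact conditional binomial (Clopper-Pearson) 95% intervals, for the 372 of 508 microRNAs with a mean CPM of at least 3.14. Differences of ratios and arm odds have delta-method intervals with 0.5 added to each count. A count of 0 allows up to 0.342 to 0.470 CPM (3 counts). edgeR 4.0.16 (TMM) and DESeq2 1.42.0 fitted additive terms, and the code was tested on simulated data. The simulation for edgeR changed 200 microRNAs 3-fold with rtTA and set no dox effect. It therefore does not show how the fit behaves on these libraries. Groups follow the sample titles. Named microRNAs were the members, their paralogs, seed families and Smc4 neighbours, and the 3 nearest profiles of each member. Members and lists were chosen with earlier results of these data known. Sequences of hairpins and positions are from RefSeq (GRCm38.p6), mature sequences from the deposited files. Alternatives were other scalings, floors, a 1.5-fold limit and trends on G or GC content subtracted.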

Additional observations from a re-analysis of the deposited data

Results flagged for a closer look

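The dox ratios of 2 members pointed in opposite directions in the 2 genotypes, with both counting intervals excluding equality. For miR-25 the log2 ratio was -0.58 with rtTA and 0.37 without, a difference of -0.95. For miR-93 it was 0.31 with rtTA and -0.10 without, a difference of 0.41. With the linear trend on the percentage of G subtracted, miR-25 stood at -0.36 with rtTA and 0.35 without, and miR-93 at 0.01 and -0.03. With the trend on G and C together subtracted, miR-25 stood at -0.53 and 0.41 and miR-93 at 0.29 and -0.03. With 1 library per group the difference between genotypes was not tested against a spread between replicates.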

How the results depend on the processing

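Over 4 other scalings and the 2 composition trends the members' calls by the 2-fold rule were the same as in the report, with miR-106b* in rtTA without dox at 1.03 to 1.23. With a 1.5-fold limit 2 members were apart in rtTA without dox and 2 in rtTA with dox. Some ratios that were not called changed sign: miR-106b* in dox in rtTA cells (-0.33 to 0.05 over all settings), miR-93* in dox in rtTA cells (-0.42 to 0.0034) and in rtTA with dox (-0.14 to 0.40), and miR-25 in rtTA with dox (-0.35 to 0.0013). Among all microRNAs, the count apart by 2-fold in dox in rtTA cells (37) was 8 with the G trend and 20 with the GC trend subtracted, and 107 at 1.5-fold. In dox without rtTA (6) it was 10 with a floor of 5 counts, 2 with a floor of 100, 11 with no floor and 57 at 1.5-fold. In rtTA without dox (7) it was 3 with the GC trend subtracted, 14 with a floor of 5, 4 with a floor of 100, 15 with no floor and 35 at 1.5-fold. In rtTA with dox (62) it was 21 with the G trend and 43 with the GC trend subtracted, 53 with edgeR or DESeq2 scaling factors, and 141 at 1.5-fold. A floor of 5 counts left 419 microRNAs and one of 100 left 304. Without a floor there were 448 in dox without rtTA and 451 in rtTA without dox. A limit of 1.5-fold admits more of the same 372 by its definition. For the changes with the floor and the trends the cause was not tested. Among guides alone miR-93 held 71.0% to 82.0% of the counts. For the miR-17 seed, leaving out relatives at most 2 mismatches apart left only the 2 members, so no share could be given, and for the miR-25 seed no relative was that close. At this depth the counting error is small for the guides, and the lack of replicate libraries limits what the values show.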
